A study of Mus musculus with 12 samples.

Results

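Fatty acid uptake and beta-oxidation were followed through 33 genes chosen by name from what their proteins are known to do, and every probe set annotated to a single one of these genes was read on every array. Of the 33, 31 had such a probe set, out of 18193 genes with a single-symbol probe set on the array, and Acsl1 and Cpt1b were not analysed here. The 31 genes were covered by 57 of 45037 probe sets that are not array controls, and all 31 passed the filter on dim genes that left 11166 genes to test. RNA came from the left ventricles of 12 male C57BL/6 mice, each heart on its own Affymetrix mouse genome array. TG mice carried ATF6-MER, a tamoxifen-responsive fusion of ATF6 with a mutant mouse estrogen receptor domain, and NTG mice were littermates without it. ATF6 switches on genes when unfolded protein builds up in the endoplasmic reticulum (ER). Each genotype was given tamoxifen or vehicle, which makes 4 groups of 3 mice. All mice were given an age of about 30 weeks except TG tamoxifen 1, given as 40 weeks. What promoter drives the fusion, and how much tamoxifen was given for how long, is not stated in the labels used here.

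The heart draws most of its ATP from fatty acids. They are freed from lipoproteins by lipoprotein lipase, taken up through CD36 and fatty acid transport proteins, bound in the cytosol by FABP3, joined to coenzyme A and passed into mitochondria on carnitine. Malonyl-CoA, made by acetyl-CoA carboxylase and removed by malonyl-CoA decarboxylase, blocks the entry step. Inside, each turn of beta-oxidation runs through a dehydrogenase, a hydratase, a further dehydrogenase and a thiolase, helper enzymes deal with double bonds, and the electrons pass through ETF and its dehydrogenase to ubiquinone. Transcription factors such as PPAR-alpha and the estrogen-related receptors are known to drive many of these genes in heart muscle.

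Labels and transgene were checked before any comparison. Esr1, whose estrogen receptor domain is part of the fusion, read between 16.66 and 18.23 log2 units on the 6 TG arrays and between 7.15 and 10.88 on 5 of the NTG arrays, but 17.72 on the array labelled NTG tamoxifen 1. Hspa5, the ER chaperone BiP and a known ATF6 target, read 18.05 on that array against 15.65 and 15.49 on NTG tamoxifen 2 and 3, and 18.37 to 18.47 in TG tamoxifen. That array therefore goes against its label, and counts are given with and without it. In TG tamoxifen against TG vehicle and in TG vehicle against NTG vehicle it alters only the spread, and where it enters a named gene's change both values are given. TG vehicle 3 is vehicle by its title and tamoxifen by its treatment field, and its Hspa5 of 15.94 lay among the other TG vehicle arrays (16.38 and 15.76). Groups were taken from the titles. The median deposited intensity ran from 648.1 to 833.7 per array. RNA quality was read from beta-actin control probes as the ratio of 3' to 5' signal. It was 1.75 to 1.88 on TG tamoxifen arrays, 1.32 to 1.68 on TG vehicle arrays, 1.78 to 1.97 in NTG tamoxifen and 2.12 to 2.43 in NTG vehicle, so it moved with the groups. The same ratio from Gapdh control probes overlapped between TG tamoxifen (0.745 to 0.778) and TG vehicle (0.759 to 0.787). It was 0.766 to 0.852 in NTG tamoxifen and 0.886 to 1.01 in NTG vehicle. Nothing was counted on an array, and the number of arrays limits the precision.

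**Figure D1:**
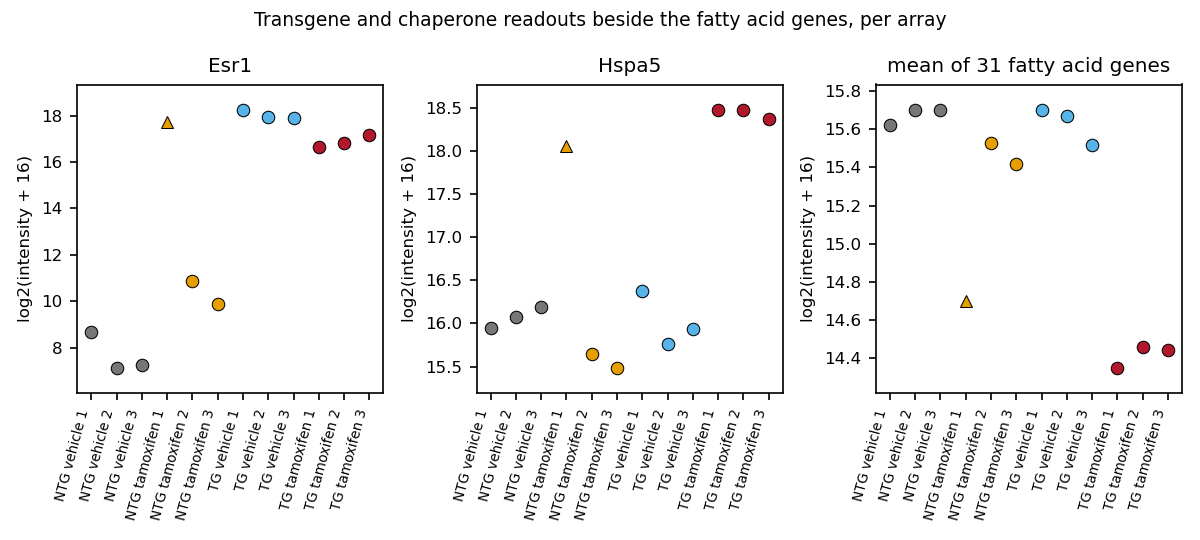
Level on each array, in log2(intensity + 16), of Esr1, of Hspa5 and of the mean of the 31 fatty acid genes, coloured by group. The triangle is the array labelled NTG tamoxifen 1, where Esr1 read 17.72, Hspa5 18.05 and the fatty acid mean 14.70, between the TG tamoxifen arrays (14.35 to 14.46) and the other 8 arrays (15.42 to 15.70).

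Promoter windows of 26 of the 33 genes were at hand from RefSeq (GRCm38.p6), each 300 bases from 250 before to 50 after a gene's start, and they are shown for the 2 cases on which a result below bears. The first is the shared promoter region of Hadha and Hadhb, the alpha and beta subunits of the mitochondrial trifunctional protein, whose starts lie 273 bases apart on opposite strands of chromosome 5. The Hadhb window lies at chr5:30155003-30155302, plus strand, and the capitals mark the 228 bases that are also in the Hadha window. The second is Acacb, at chr5:114165268-114165567, plus strand, where the capitals mark an ER stress element.
Hadhb: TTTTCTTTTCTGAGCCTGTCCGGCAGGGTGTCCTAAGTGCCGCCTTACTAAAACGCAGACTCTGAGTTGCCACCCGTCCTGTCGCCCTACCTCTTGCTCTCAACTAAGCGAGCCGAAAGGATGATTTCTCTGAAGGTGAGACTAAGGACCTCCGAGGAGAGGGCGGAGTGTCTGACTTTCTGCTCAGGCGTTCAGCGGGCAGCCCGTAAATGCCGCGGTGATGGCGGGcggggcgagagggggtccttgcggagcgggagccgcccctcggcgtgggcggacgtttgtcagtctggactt
Acacb: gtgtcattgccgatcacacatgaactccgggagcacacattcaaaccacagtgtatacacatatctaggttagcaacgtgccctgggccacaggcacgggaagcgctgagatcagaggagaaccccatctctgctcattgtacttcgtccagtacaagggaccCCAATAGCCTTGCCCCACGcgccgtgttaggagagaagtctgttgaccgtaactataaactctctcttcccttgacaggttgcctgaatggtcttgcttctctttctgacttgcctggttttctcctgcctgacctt

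The ER stress element, to which ATF6 is known to bind, was searched on both strands as CCAAT, 9 bases of any kind and CCACG. It occurred in 1 of the 29 windows of these genes, that of Acacb, from 87 to 69 bases before the start, and in 0.119% of all 32851 windows. The search for TCAAGGTCA (estrogen-related receptor element, in 0.423% of all windows) and for TGACGTGG (ATF6 site, 0.676%) gave no match in these genes. The same was so for the direct repeat bound by PPAR and RXR (0.0396%) and for ER stress element II (0.0365%). The shorter nuclear receptor motif AAGGTCA, which lies within the estrogen-related receptor element, was tried after the data had been seen. It stood in the windows of 2 of the 26 genes, Acacb and Acadm, and in 4.72% of all windows. These counts say only whether the letters stand in these windows.

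In TG hearts given tamoxifen the pathway's transcripts were lower at nearly every step. Of 31 genes, 24 fell and 0 rose in TG tamoxifen against TG vehicle (limma, Benjamini-Hochberg adjusted p under 0.05, hereafter the threshold), where 14.4% of all genes tested fell and 10.4% rose. The log2 change was negative for all 31, with a median of -1.23 against -0.07 over all genes. For 19 genes the fall passed the threshold and was over 1 log2 unit, where 6.72% of all genes fell by as much, and for 29 every TG tamoxifen array lay below every TG vehicle array, where 24.4% of all genes did. The largest falls were in Cpt2, which releases acyl-CoA from carnitine inside the mitochondrion, and Mlycd, malonyl-CoA decarboxylase. Lpl, Cpt1a, Acadm, Hadhb, Etfa, Etfb and Acot2 did not pass. In whole ventricle, fewer cells of a type and less RNA per cell cannot be told apart. Without the array labelled NTG tamoxifen 1, which enters here only through the spread, 26 fell and 0 rose, where 16.4% of all genes fell and 12.9% rose, the additions being Cpt1a and Acadm. With TG vehicle 3 grouped by its treatment field limma called 0 of 31 and 0 of all genes, with 19 of the 31 at an unadjusted p under 0.05 and a median of -0.92. With the beta-actin ratio as a term of the fit it called 0 of 31 and 28 of all genes, with 26 of the 31 at an unadjusted p under 0.05 and a median of -1.21.

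**Figure D2:**
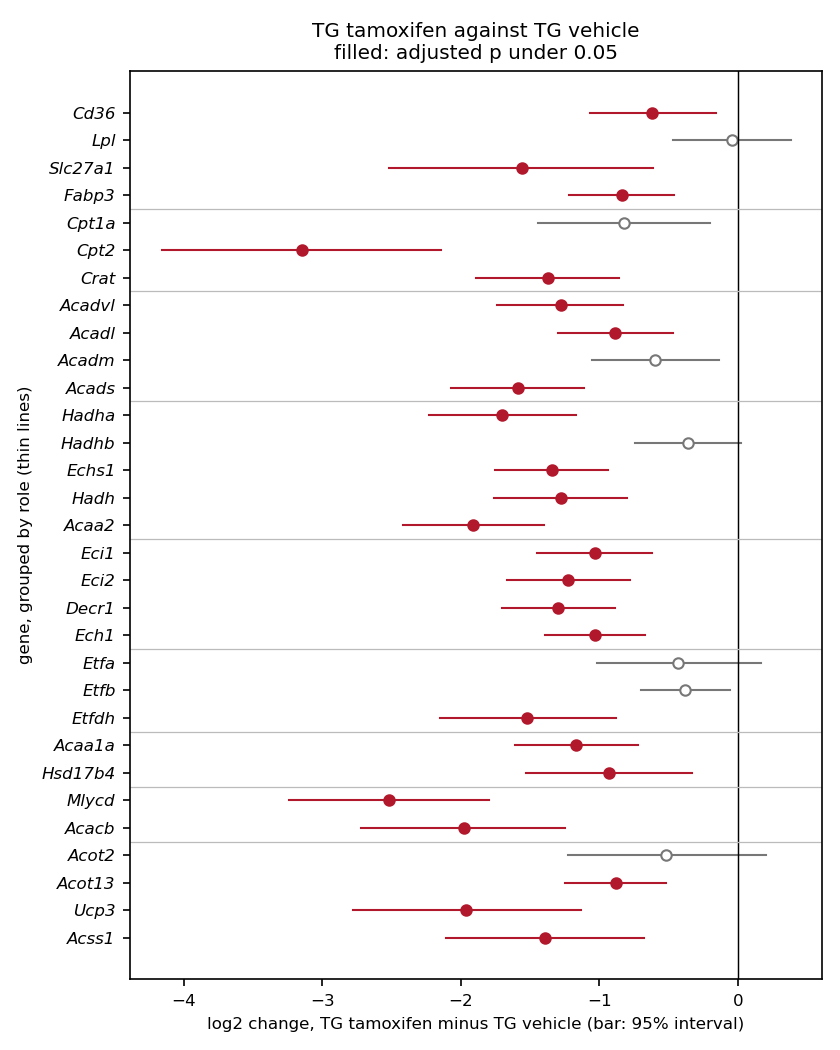
Log2 change in TG tamoxifen minus TG vehicle for each of the 31 genes, grouped by role, with its 95% interval from limma over 12 arrays. Filled points passed the threshold, and all 31 points lie below 0, from -0.04 for Lpl to -3.15 for Cpt2.

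Of the 4 uptake genes 3 fell. Cd36, the main fatty acid transporter of the heart cell membrane, read 16.19, 16.22 and 16.34 log2 units in TG tamoxifen and 17.00, 16.62 and 16.98 in TG vehicle, a fall of 0.62 ± 0.21 (SE, n = 3 arrays per group; adjusted p = 0.0483). All TG tamoxifen arrays were below all TG vehicle arrays, though the call was held by only 10 of 27 alternative settings. Slc27a1, a fatty acid transport protein, fell from 11.96, 12.67 and 11.50 to 10.83, 9.72 and 10.91 (-1.56 ± 0.44, adjusted p = 0.0246). Fabp3, the cytosolic carrier of heart muscle, fell from 18.30, 18.59 and 18.41 to 17.42, 17.78 and 17.57 (-0.84 ± 0.17, adjusted p = 0.00697). Lpl, lipoprotein lipase, read 18.31, 18.28 and 18.33 against 18.43, 18.31 and 18.31, a difference of -0.04 ± 0.19 (adjusted p = 0.893), with the groups overlapping. This Lpl probe set ranked between 9 and 181 of 45037 by brightness over the arrays, and Fabp3's between 3 and 159.

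The carnitine shuttle held the largest change. Cpt2 read 11.99, 12.07 and 12.02 in TG tamoxifen and 15.17, 15.36 and 14.99 in TG vehicle, 8.86-fold lower (-3.15 ± 0.46, adjusted p = 0.00191). The groups lay far apart beside a spread within each of at most 0.18 (SD). Crat, carnitine acetyltransferase, fell from 13.92, 14.50 and 13.84 to 12.73, 13.02 and 12.39 (-1.37 ± 0.24, adjusted p = 0.0033). Cpt1a, the liver-type enzyme of the entry step, read 11.15, 11.51 and 11.36 against 11.93, 12.51 and 12.04 and just missed the threshold (-0.82 ± 0.28, adjusted p = 0.0541; 0.0109 without the array labelled NTG tamoxifen 1). It did not overlap between the groups.

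Both genes of malonyl-CoA control fell. Mlycd read 11.19, 11.33 and 10.76 in TG tamoxifen and 13.45, 13.86 and 13.52 in TG vehicle, 5.73-fold lower (-2.52 ± 0.33, adjusted p = 0.00172). Acacb, the mitochondrial acetyl-CoA carboxylase whose window above holds the ER stress element, read 11.58, 11.80 and 11.55 against 13.60, 14.13 and 13.15 (-1.98 ± 0.33, adjusted p = 0.00319). The enzyme that removes malonyl-CoA and an enzyme that makes it were thus lower on the same arrays.

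Among the acyl-CoA dehydrogenases, which take the chain-length classes in turn, 3 of 4 fell. Acadvl, for very long chains, fell from 17.02, 16.78 and 16.45 to 15.40, 15.54 and 15.46 (-1.28 ± 0.21, adjusted p = 0.00274). Acadl, for long chains, fell from 17.39, 17.24 and 17.01 to 16.18, 16.41 and 16.38 (-0.89 ± 0.19, adjusted p = 0.0082). Acads, for short chains, fell from 13.65, 14.18 and 13.73 to 12.15, 12.33 and 12.31 (-1.59 ± 0.22, adjusted p = 0.00175). Acadm, for medium chains, read 16.80, 16.75 and 16.91 against 17.68, 17.20 and 17.37 (-0.60 ± 0.21, adjusted p = 0.0549, and 0.0291 without the array labelled NTG tamoxifen 1). Its groups did not overlap, and its difference was the smallest of the 4.

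The later steps of the cycle fell except for Hadhb. Acaa2, the mitochondrial thiolase, fell from 17.08, 17.15 and 16.89 to 15.09, 15.18 and 15.13 (3.75-fold, -1.91 ± 0.23, adjusted p = 0.00159). Hadha fell from 16.59, 16.58 and 16.12 to 14.62, 14.74 and 14.82 (3.26-fold, -1.70 ± 0.24, adjusted p = 0.00175). Echs1, the short-chain hydratase, changed by -1.34 ± 0.18 (adjusted p = 0.00175) and Hadh, the short-chain hydroxyacyl-CoA dehydrogenase, by -1.28 ± 0.22 (adjusted p = 0.0033). Hadhb read 17.40, 17.40 and 17.45 against 17.98, 17.64 and 17.72 (-0.36 ± 0.17, 95% interval -0.74 to 0.02, adjusted p = 0.144). Its arrays did not overlap, but the size did not pass the threshold.

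**Figure D3:**
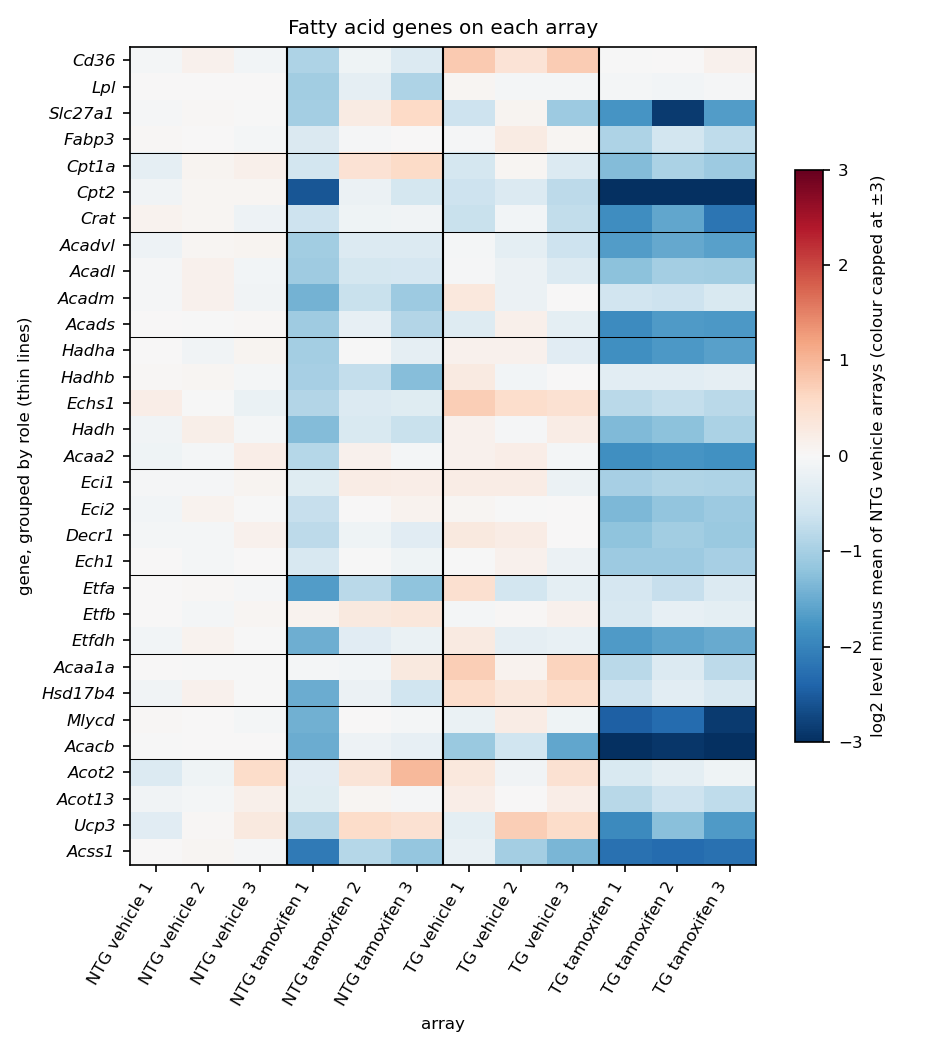
Level of each gene on each array minus its mean over the 3 NTG vehicle arrays, in log2 units, with colours capped at 3 units either way. The TG tamoxifen columns are blue for most genes, and the array labelled NTG tamoxifen 1 lay below both other NTG tamoxifen arrays for 29 of the 31 genes.

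The 4 enzymes that handle unsaturated fatty acids all fell. Eci1 and Eci2, enoyl-CoA isomerases, changed by -1.03 ± 0.19 and -1.23 ± 0.20 (adjusted p = 0.00436 and 0.00299). Decr1, dienoyl-CoA reductase, read 14.92, 15.07 and 15.01 against 16.42, 16.34 and 16.13 (-1.30 ± 0.18, adjusted p = 0.00175). Ech1, a dienoyl-CoA isomerase, changed by -1.03 ± 0.16 (adjusted p = 0.00254). The peroxisomal thiolase Acaa1a changed by -1.17 ± 0.20 (adjusted p = 0.00347) and the peroxisomal multifunctional enzyme Hsd17b4 by -0.93 ± 0.27 (adjusted p = 0.0296). Hsd17b4 held its call in 14 of 27 alternative settings.

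Of the 3 electron transfer genes 1 fell. Etfdh, which hands the electrons to ubiquinone, fell from 16.78, 16.25 and 16.28 to 14.82, 14.93 and 15 (-1.52 ± 0.29, adjusted p = 0.00519). Etfa, the alpha subunit of ETF, read 16.16, 15.98 and 16.25 against 17.16, 16.13 and 16.38, with overlap (-0.43 ± 0.27, adjusted p = 0.269). Etfb, the beta subunit, read 16.73, 16.97 and 16.91 against 17.15, 17.25 and 17.34 (-0.38 ± 0.15, adjusted p = 0.079). Of the remaining genes, the mitochondrial uncoupling protein Ucp3 changed by -1.96 ± 0.38 (adjusted p = 0.00523), Acss1, which activates acetate in mitochondria, by -1.39 ± 0.33 (adjusted p = 0.0117) and the thioesterase Acot13 by -0.88 ± 0.17 (adjusted p = 0.00459). Acot2, a mitochondrial thioesterase, read -0.52 ± 0.33 (adjusted p = 0.266) and did not pass.

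Other probe sets of the same genes mostly pointed the same way. For 19 genes with more than 1 probe set there were 26 others, of which 22 lay above the filter level and 21 of these had a negative change. With all 45037 probe sets tested, 18 of the 31 standing probe sets and 7 of the 26 others fell and 0 of the others rose, where 1.7% of all probe sets fell and 1.41% rose. For Cpt2 the other probe set gave -1.07 where the standing one gave -3.15. For Lpl the other probe set read 16.08, 15.94 and 15.85 in TG tamoxifen against 17.46, 17.21 and 16.79 (-1.20 ± 0.40, adjusted p = 0.132 over all probe sets, 0.027 without the array labelled NTG tamoxifen 1). Lpl thus rests on which probe set is read. The 3 Cd36 probe sets read -0.62, -0.76 and -1.49, and the other Hadhb probe sets -0.33 and -0.69. The probe sets that stand for Acaa2, Hadh, Acaa1a and Hsd17b4 are of a type that may match further transcripts.

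Hadha and Hadhb, which share the promoter region shown above, were set against each other within each array, a comparison chosen after their values were seen. The pair was picked for its unlike changes, so the values are a description with no test, and the size of the difference on 1 array has no meaning across probe sets. Hadha minus Hadhb was -2.78, -2.66 and -2.63 log2 units in TG tamoxifen and -1.39, -1.06 and -1.60 in TG vehicle. The group means differed by -1.34, with no overlap. In NTG hearts the difference was -1.28, -0.56 and -0.25 with tamoxifen and -1.27, -1.42 and -1.09 with vehicle. The NTG means differed by 0.56, with overlap, and by 0.85 without the array labelled NTG tamoxifen 1.

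NTG tamoxifen against NTG vehicle was meant to show tamoxifen without the transgene, but 1 of its 3 tamoxifen arrays is the one with Esr1 at the level of TG arrays. Acadm, Hadhb, Etfa and Acss1 fell and 0 rose of 31, where 3.65% of all genes fell and 0.654% rose, and the median change was -0.49 against -0.01 over all genes. Hadhb read 16.72, 17.00 and 16.45 with tamoxifen and 17.75, 17.78 and 17.65 with vehicle (-1.0 ± 0.17, adjusted p = 0.0172). Acadm read 15.95, 16.71 and 16.27 against 17.34, 17.51 and 17.27 (-1.06 ± 0.21, adjusted p = 0.025), and Etfa 14.99, 15.85 and 15.47 against 16.67, 16.70 and 16.64 (-1.24 ± 0.27, adjusted p = 0.0303). Acss1 read 13.43, 14.70 and 14.40 against 15.55, 15.60 and 15.51 (-1.37 ± 0.33, adjusted p = 0.0397). In each of these 4 genes all NTG tamoxifen arrays lay below all NTG vehicle arrays, and over the 31 genes this held for 16, where 17% of all genes did. All lay above for 1 of the 31, where 13.2% of all genes did. With NTG tamoxifen 1 left out, 16 lay below and 5 above, where 23.7% and 20.4% of all genes did. Without the array labelled NTG tamoxifen 1, Hadhb (-1.0, adjusted p = 0.03) and Acadm (-0.89, adjusted p = 0.0432) passed, where 3.06% of all genes fell and 0.743% rose, Etfa and Acss1 did not (-1.01 and -1.0, adjusted p = 0.065 and 0.0715), and the median was -0.19. The count was 0 of 31 without NTG tamoxifen 3 or without NTG vehicle 1, 2 or 3 (10 to 14 at an unadjusted p under 0.05), 9 without NTG tamoxifen 2, and 0 with the beta-actin ratio as a term (5 at an unadjusted p under 0.05). The calls over all genes moved likewise, from 481 to between 0 and 23 without any of the first 4 arrays, to 829 without NTG tamoxifen 2 and to 0 with the ratio.

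**Figure D4:**
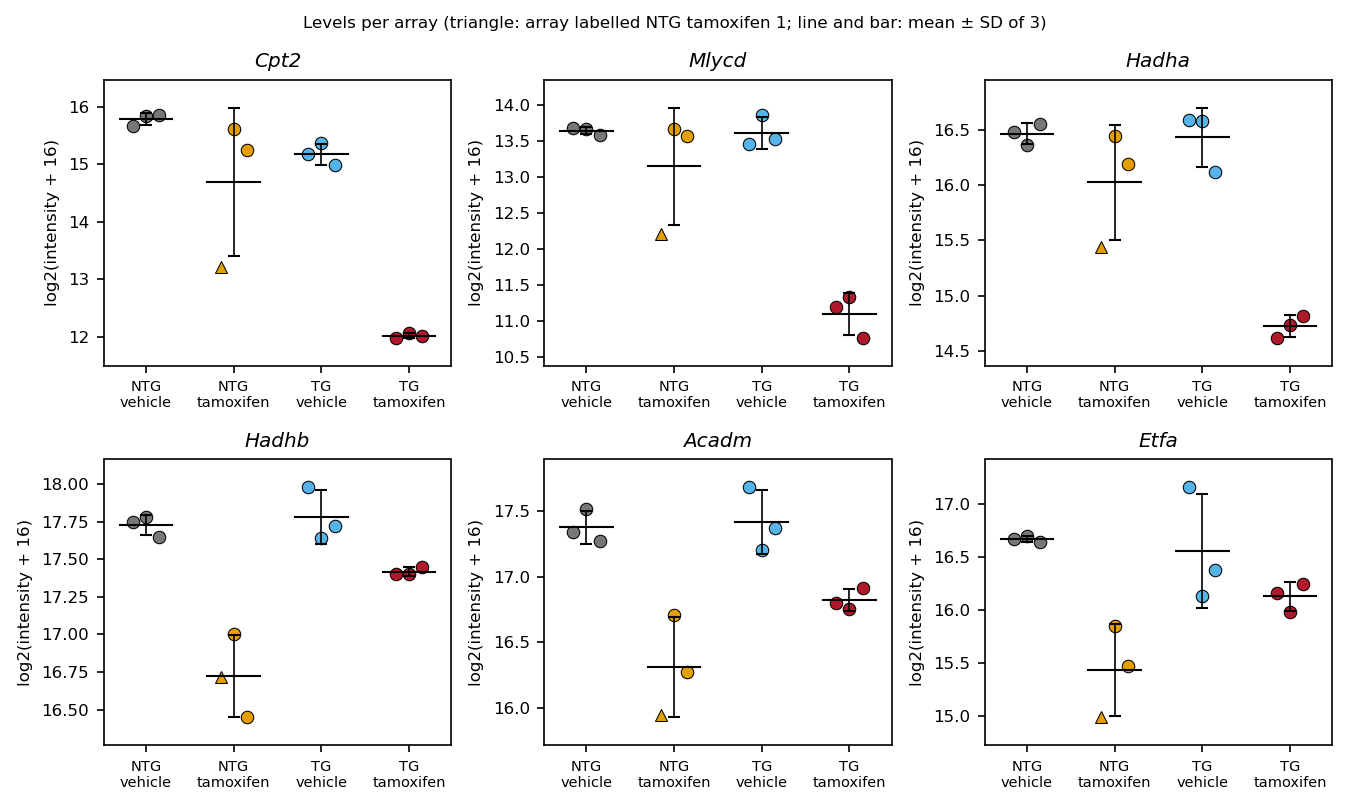
Levels on each array, in log2(intensity + 16), of 6 genes by group, with the mean and SD of 3 arrays. Cpt2, Mlycd and Hadha were lowest in TG tamoxifen, while Hadhb, Acadm and Etfa were lowest in NTG tamoxifen, and the triangle marks the array labelled NTG tamoxifen 1.

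Whether tamoxifen acted differently in the genotypes was tested as the difference between its effects. It was negative and past the threshold for 11 of 31 genes and positive for 0, where 6.76% of all genes were negative and 7.51% positive: Acaa2, Mlycd, Acaa1a, Eci1, Ucp3, Hadha, Eci2, Ech1, Decr1, Crat and Acot13. For Mlycd the difference was -2.03 ± 0.47 (adjusted p = 0.0198), with a change of -2.52 in TG and -0.49 in NTG, and -2.49 without the array in doubt, where the NTG change was -0.02. For Acaa2 it was -1.64 ± 0.33 (adjusted p = 0.0136), from -1.91 in TG and -0.26 in NTG, and -1.94 without that array, where the NTG change was 0.04. Cpt2 had -2.06 ± 0.65 (adjusted p = 0.0553), and its NTG tamoxifen arrays read 13.22, 15.61 and 15.25, the lowest being the array in doubt. Without that array 21 genes passed, all negative, where 11% of all genes were negative and 11.8% positive, Cpt2 among them at -2.80 (adjusted p = 0.000163). The difference was positive for Lpl, Acadm, Hadhb and Etfa (0.69, 0.47, 0.64 and 0.81), and none of these passed with or without that array (limma, adjusted p from 0.0934 to 0.291 with it; 0.54, 0.29, 0.64 and 0.59 without it). The count fell to between 2 and 6 when any of TG tamoxifen 1, 2 or 3, TG vehicle 2 or 3, NTG tamoxifen 2 or 3 or NTG vehicle 1, 2 or 3 was left out, while the calls over all genes fell from 1594 to between 639 and 1394. Without NTG tamoxifen 2, 3 were negative and 1 positive.

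**Figure D5:**
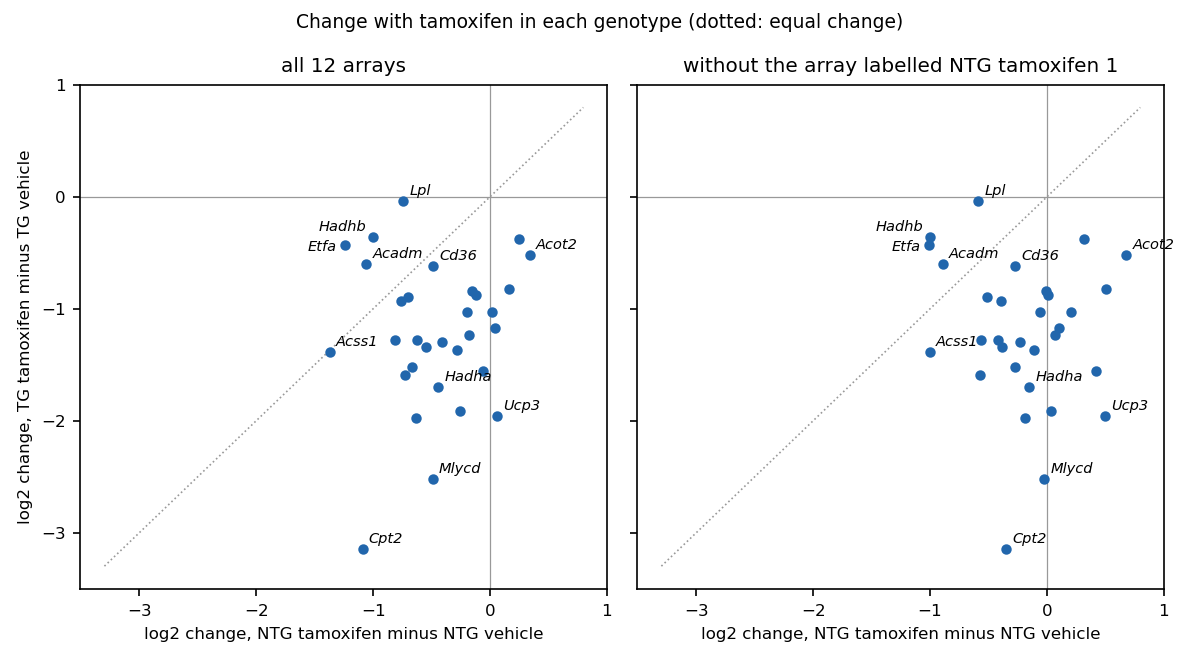
Log2 change with tamoxifen in NTG hearts (x axis) and in TG hearts (y axis) for the 31 genes, with all 12 arrays and without the array labelled NTG tamoxifen 1. Most points lie below the dotted line of equal change, and Lpl, Hadhb, Etfa and Acadm lie above it in both panels.

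The array labelled NTG tamoxifen 1 was low for most of these genes. It lay below both other NTG tamoxifen arrays for 29 of 31 (36.4% of all genes), all but Hadhb and Acaa1a. It fell between those arrays above and the TG tamoxifen arrays below for 20 (14.4% of all genes), and below every TG tamoxifen array for 7, namely Cd36, Lpl, Acadm, Hadhb, Echs1, Etfa and Hsd17b4 (35.7% of all genes). In Cpt2 it read 13.22, between 12.07 and 15.25.

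TG vehicle against NTG vehicle showed the transgene without the drug. limma called 0 of 31 genes, with 5 at an unadjusted p under 0.05, where 2.24% of all genes fell and 1.39% rose, and the median change was 0.03. Acacb read 13.60, 14.13 and 13.15 in TG and 14.71, 14.72 and 14.72 in NTG (-1.09 ± 0.33, adjusted p = 0.0892). Cd36 read 17.00, 16.62 and 16.98 against 16.15, 16.35 and 16.13 (0.65 ± 0.21, adjusted p = 0.0952). Neither gene overlapped between the groups on these probe sets. The other Cd36 probe sets read 0.2 and -0.03 (limma over all probe sets, adjusted p = 0.797 and 0.982). The higher Cd36 in TG thus rests on which probe set is read. Without the array labelled NTG tamoxifen 1, Acacb (adjusted p = 0.0241) and Cpt2 (-0.61, adjusted p = 0.0426) were lower and Cd36 (adjusted p = 0.0381) and Echs1 (0.58, adjusted p = 0.0483) higher, where 4.18% of all genes fell and 3.09% rose.

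TG tamoxifen against NTG tamoxifen compared the genotypes under the drug, and it shares its TG tamoxifen arrays with the first comparison. Of 31 genes 21 were lower and 2 higher, where 20.6% of all genes were lower and 19% higher. Acacb (-2.45 ± 0.33, adjusted p = 0.000459), Cpt2 (-2.67 ± 0.46, adjusted p = 0.00123) and Mlycd (-2.05 ± 0.33, adjusted p = 0.000874) were among the lower, at -2.88, -3.41 and -2.52 without the array labelled NTG tamoxifen 1. Hadhb was higher in TG (0.70 ± 0.17, adjusted p = 0.00791), as was Lpl (0.68 ± 0.19, adjusted p = 0.0169), although the mean of Lpl's probe sets gave -0.10. The other Hadhb probe sets read 1.12 and -1.47 (limma over all probe sets, adjusted p = 0.0173 and 0.0343). The other Lpl probe set read -0.87 (adjusted p = 0.189 in that fit). The direction of both genes thus rests on which probe set is read. Without the array labelled NTG tamoxifen 1, 24 were lower (21.9% of all genes) and the same 2 higher (20.9%), Hadhb at 0.69 and Lpl at 0.52. The other Hadhb probe sets then read 1.1 and -1.83 (limma over all probe sets, adjusted p = 0.032 and 0.0123). The other Lpl probe set then read -1.37 (adjusted p = 0.0117 in that fit). On the standing probe sets NTG tamoxifen 2 and 3 lay below every TG tamoxifen array for Cd36, Lpl, Acadm, Hadhb and Etfa, 5 of 31, where 31% of all genes did. On the other Lpl probe set they read 17.65 and 17.01, above the TG tamoxifen arrays (16.08, 15.94 and 15.85). The other Cd36 probe sets overlapped, and the other Hadhb probe sets went opposite ways.

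Beyond the 31, a list of 60 further fatty acid genes, of which 50 were tested, had 26 lower and 3 higher in TG tamoxifen against TG vehicle, with a median of -0.78, where 14.4% of all genes fell and 10.4% rose. Those with the smallest adjusted p were Acad11, a dehydrogenase of hydroxylated and long-chain acyl-CoA (-1.82 ± 0.20, adjusted p = 0.00137), the triglyceride lipase Pnpla2 (-1.62, 0.00172), Mcee of propionate breakdown (-1.41, 0.00175), the lipid droplet protein Plin5 (-2.66, 0.00327), Auh of leucine breakdown (-1.24, 0.00382), the coenzyme A hydrolase Nudt7 (-1.85, 0.0043), the thioesterase Acot7 (-1.06, 0.00434) and the ketone body enzyme Bdh1 (-1.77, 0.00436). The 3 that rose, named after their values were seen, were the thioesterase Acot9 (1.21, adjusted p = 0.005), the acyl-CoA synthetase Acsl4 (0.87, 0.0264) and the peroxisomal acyl-CoA binding protein Acbd5 (1.09, 0.0303). Acsl4 and Acbd5 fell in NTG tamoxifen against NTG vehicle (-1.09 and -1.57, adjusted p = 0.0337 and 0.0252, and -0.74 and -1.57 without the array labelled NTG tamoxifen 1). In NTG tamoxifen against NTG vehicle 10 of 50 were lower and 0 higher (limma, median -0.34), where 3.65% of all genes were lower, with Scp2, a peroxisomal thiolase and lipid carrier (-1.70, adjusted p = 0.0152), Acad8 of valine breakdown (-1.01, 0.0152) and Acadsb of isoleucine breakdown (-2.78, 0.0152). With the array in doubt left out, Scp2, Acad8 and Acadsb read -1.66, -0.90 and -2.51. Then 28 were lower in the TG comparison (16.4% of all genes) and 10 in the NTG comparison (3.06% of all genes).

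Of 24 transcription factors and coactivators of the pathway tested, 11 fell, 13 did not pass and 0 rose in TG tamoxifen against TG vehicle, with a median of -0.67, where 14.4% of all genes fell. With the array in doubt left out, 12 fell, where 16.4% of all genes did. Klf15, a factor of cardiac lipid metabolism, read 9.03, 8.28 and 8.32 against 12.46, 12.10 and 11.50 (-3.47 ± 0.40, adjusted p = 0.00159). Ppara, which encodes PPAR-alpha, read 11.73, 11.84 and 11.96 against 13.43, 13.84 and 13.24 (-1.66 ± 0.26, adjusted p = 0.00251). Its partner receptor Rxrg changed by -2.10 (adjusted p = 0.00175), the muscle coactivator Perm1 by -1.88 (0.00172), the mitochondrial deacetylase Sirt3 by -1.57 (0.00291), the PPAR-alpha coactivator Lpin1 by -1.36 (0.00364), the muscle factor Mef2d by -1.03 (0.0119) and the estrogen-related receptor Esrra by -0.81 (0.0101). In NTG tamoxifen against NTG vehicle limma called 0 of the 24, and the median was -0.08, while Ppara, at 0.58 with all arrays, passed once the array in doubt was left out (0.89, adjusted p = 0.0469). Of 9 tested PPAR targets outside the 31 genes, 4 fell in TG tamoxifen against TG vehicle: Plin5, the carnitine carrier Slc25a20 (-2.12, adjusted p = 0.00695), the thioesterase Acot1 (-2.58, 0.031) and the pyruvate dehydrogenase kinase Pdk4 (-1.59, 0.0343), and 4 fell without the array labelled NTG tamoxifen 1. In NTG hearts 1 of the 9 was called, the lipid carrier Fabp4 (-1.12, adjusted p = 0.0201, and -1.07 without that array). The lists overlap: Plin5, Acot1 and Fabp4 are also on the list of further fatty acid genes, and Fabp4 is also among the endothelial markers below.

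Markers of heart muscle and of other cells were read beside these genes in TG tamoxifen against TG vehicle, where 14.4% of all genes fell and 10.4% rose. Heart muscle was borne out by Myh6, the main myosin of the heart, at 18.41 to 18.69 on all arrays, but Myh6 alone does not tell the chamber. The atrial marker Myl7 read 15.12 on NTG tamoxifen 2 and 8.76 to 12.5 on the other arrays. Myl4 read 14.94 there against 10.7 to 13.4, and Sln 13.34 against 6.39 to 10.79. Nppa, at 16.42, lay within the range of the other arrays. Of 15 cardiomyocyte markers 5 fell and 0 rose, with a median of -0.22 and Myh6, the brightest, at -0.14 (limma, adjusted p = 0.47). The summed intensity of the 15 was 3259000 to 3364000 in TG tamoxifen and 3840000 to 4044000 in TG vehicle. Of 14 endothelial markers 6 fell (sums 201200 to 213800 against 238100 to 267900), with Fabp4, the brightest, at -0.07. Of 7 adipocyte markers 5, among them Adipoq, lay below the filter level, and both that were tested fell, with Plin4 at -1.84 (sums 10940 to 12110 against 28480 to 34300). Of 13 macrophage and myeloid markers 4 rose, with the brightest, Csf1r, at -0.28 and overlapping sums (126000 to 183000 against 74890 to 147400). Of 10 fibroblast markers 2 fell, with Dcn at -0.65, and 1 rose (232000 to 258500 against 262900 to 313500). Of 7 smooth muscle and pericyte markers 2 fell, with Rgs5 at -0.01 (164700 to 212300 against 188600 to 216600). No atrial, skeletal muscle or red blood cell marker passed (limma), with Nppa at 1.0, Acta1 at -0.90 and Alas2 at 0.20. Of 7 genes often used as controls 4 rose, with Actb at 0.62. These counts were the same with the array in doubt left out, except that 3 fibroblast markers fell. With tamoxifen in NTG hearts 3.65% of all genes fell and 0.654% rose. Of these markers 3 fibroblast, 2 smooth muscle and pericyte, 1 endothelial and 1 myeloid fell, and 1 skeletal muscle marker rose. Smooth muscle and pericyte sums were 124800 to 178700 with tamoxifen and 270700 to 322200 with vehicle. Without the array in doubt 2 myeloid markers fell, atrial Myl7 (3.85) and Myl4 (2.67) rose and the other counts stayed. The part of cell make-up, of these shifts and of RNA quality in the fall of the fatty acid genes was not tested. The beta-actin ratio did not overlap between TG tamoxifen (1.75 to 1.88) and TG vehicle (1.32 to 1.68). The fit with that ratio as a term therefore cannot tell RNA quality and group apart.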

How the data were processed

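Per the labels, RNA from 12 left ventricles was hybridised to 12 Affymetrix arrays, 3 per group. The authors deposited linear intensity values, 1 for every probe set on every array, whose trimmed means are equal across arrays. The summarisation software is not given in the sources used here. From these, log2(intensity + 16) was taken and, since array medians spanned 0.356 log2 units (the limit set was 0.2), quantile normalized without the 64 control probe sets. Each gene was read from its brightest single-symbol probe set, and genes dimmer than the 50th percentile were left out. The edge of this filter and the set of controls were tried in 3 versions, which differ by about 1 gene. Changes were fitted in limma 3.58.1 (R 4.3.3) as 1 model of 4 group means with 8 residual degrees of freedom, adjusted by Benjamini-Hochberg over all 11166 genes, with a threshold of 0.05. The offset understates changes of dim genes. The fit was tested on simulated data. The genes and lists were chosen with earlier results of these data known. All 31 measured genes are named, and of the other lists those with the smallest adjusted p past the threshold, up to 8 further fatty acid genes, 8 regulators and 5 PPAR targets in TG tamoxifen against TG vehicle and up to 3 of each in NTG tamoxifen against NTG vehicle. Of each marker list the brightest gene is named, and of the atrial list also Myl7, Myl4 and Sln, after their values were seen. Each replicate is a separate heart per the labels. Alternatives in scaling, offset, filter, probe set, samples and covariates are given with the dependence on processing. Promoter windows are from RefSeq (GRCm38.p6).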

Additional observations from a re-analysis of the deposited data

Results flagged for a closer look

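The effect of tamoxifen differed between TG and NTG hearts, by the test of the difference itself in limma, for 11 of the 31 genes, all negative, where 6.76% of all genes were negative and 7.51% positive. In log2 units and with adjusted p in brackets the differences were -1.64 for Acaa2 (0.0136), -2.03 for Mlycd (0.0198), -1.21 for Acaa1a (0.0214), -1.05 for Eci1 (0.0279), -2.01 for Ucp3 (0.0306), -1.26 for Hadha (0.0333), -1.05 for Eci2 (0.0342), -0.83 for Ech1 (0.0369), -0.89 for Decr1 (0.0433), -1.09 for Crat (0.0491) and -0.77 for Acot13 (0.0494). In TG hearts the change with tamoxifen of these 11 genes ran from -2.52 to -0.88, and in NTG hearts from -0.49 to 0.06, or from -0.23 to 0.50 without the array labelled NTG tamoxifen 1. Leaving out NTG tamoxifen 1, whose label is in doubt, raised the number to 21, where 11% of all genes were negative. Leaving out any other single array gave 2 to 11, while the calls over all genes went from 1594 to between 639 and 2256. The number was 0 with all probe sets tested, with TG vehicle 3 regrouped or with the beta-actin ratio as a term. The calls over all genes or probe sets were then 16, 0 and 0. No gene was tested for a single outlying array, since each group has 3.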

How the results depend on the processing

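Counts of the 31 genes past the threshold were recomputed under 27 alternatives. TG tamoxifen against TG vehicle (24) stayed within 1.5 times in 25 of them and gave 0 with TG vehicle 3 grouped as TG tamoxifen, where limma called 0 of all genes, and 0 with the beta-actin ratio as a covariate, with 28 of all genes. Left-out arrays gave 21 to 26, with 1466 to 3273 of all genes called, against 2773 in the main fit. NTG tamoxifen against NTG vehicle (4) gave 10 with median centring, 0 with no filter or all probe sets tested, 1 with the filter at the 25th percentile or the mean of probe sets, 0 on only the groups compared, 1 with TG vehicle 3 regrouped, 0 without TG vehicle 3 and TG tamoxifen 1, 0 with the covariate and 0 to 9 with arrays left out. Its calls over all genes went from 481 to 971, 4, 30 (over probe sets), 102, 138, 21, 98, 86 and 0 in the same order. With arrays left out they were 0 to 829. TG vehicle against NTG vehicle (0) gave 3 with array weights and 0 to 4 with arrays left out, where the calls over all genes went from 405 to 1283 and to between 2 and 812. TG tamoxifen against NTG tamoxifen (23) gave 14 with all probe sets, 8 with TG vehicle 3 regrouped and 18 to 26 with arrays left out. There the calls over all genes went from 4411 to 6160 (over probe sets), to 3094 and to between 3389 and 4785. The difference between the effects (11) gave 3 with median centring, 1 with no filter, 3 with the 25th percentile, 0 with all probe sets, 20 with array weights (19 negative and 1 positive), 0 with TG vehicle 3 regrouped, without it and TG tamoxifen 1, or with the covariate, and 2 to 21 with arrays left out. Its calls over all genes went from 1594 to 1853, 355, 880, 16 (over probe sets), 2680, 0, 65 and 0 in the same order. With arrays left out they were 639 to 2549. Without TG vehicle 3 and NTG tamoxifen 1 together, an alternative chosen after seeing the data, the NTG count was 1 and the difference count 20. The calls over all genes were then 305 and 2265. Where a count was 0, between 0 and 26 genes had an unadjusted p under 0.05. The mean of a gene's probe sets turned the sign of Acss1 in NTG (0.25), Cpt2 in TG vehicle against NTG vehicle (0.28), Lpl in TG tamoxifen against NTG tamoxifen (-0.10), and Etfdh (0.22) and Acacb (0.07) in the difference, since it brings in other probe sets. Genes called in neither version of a comparison other than the first are not listed one by one, a choice made after seeing the data: 97 of their 1863 values changed sign, 0 of these past the threshold, and 31 of the 1863 passed it. With the replicate number as a block, NTG fell from 4 to 1 (481 to 143 over all genes) and the other counts stayed within 1.5 times. Same-numbered arrays of different groups correlated at -0.09 to 0.09 in their deviations from group means, with 0 of 18 over 0.1. Other-numbered arrays correlated at -0.1 to 0.14. These values give no sign of pairing by number, but with 3 arrays per group they cannot exclude it. The median change of the 31 genes moved beyond the spread between replicates with median centring in TG tamoxifen against NTG tamoxifen (-0.61) and in the difference (-0.54), with TG vehicle 3 regrouped (-0.92 in TG, -0.58 between genotypes, -0.56 for the difference), without NTG tamoxifen 1 in NTG (-0.19) and without that array and TG vehicle 3 (-0.19 in NTG, -1.08 for the difference). The causes were not tested.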
